A study of Mus musculus with 6 samples.

Results

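Cells take up and release amino acids through solute carriers of the plasma membrane, and 10 genes of this kind were examined in hearts deleted for Mrps5, which encodes a component of the small mitoribosomal subunit. They were found by gene name in the deposited table of 54532 genes, in which each of the 10 names matched 1 row. RNA of heart tissue, ventricular per the methods text, was sequenced from 3 control mice (Ctrl), Mrps5 fl/fl, and from 3 conditional knockout mice (cKO), Mrps5 fl/fl; MCM, in which MCM is the MerCreMer transgene driven by the cardiomyocyte promoter αMHC. All 6 mice received intraperitoneal tamoxifen at 45 mg/kg/day for 5 days from 8 weeks of age and were sampled 12 weeks later, whereas the methods text gives the age of the mice as 12 weeks. The Ctrl mice carried no MCM, so effects of the transgene cannot be told apart from those of the deletion.

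The members fall into a few well-known transport systems. Slc3a2 encodes the heavy chain CD98, which is not itself a transport channel but brings several light chains to the cell surface. Its light chains among the members are Slc7a5 (LAT1, an exchanger of large neutral amino acids such as leucine and phenylalanine), Slc7a6 (y+LAT2, which exchanges cationic for neutral amino acids) and Slc7a11 (xCT, which imports cystine in exchange for glutamate). Slc7a1 and Slc7a3 encode carriers of arginine and lysine, Slc38a2 a sodium-coupled carrier of small neutral amino acids, Slc1a4 and Slc1a5 the neutral amino acid exchangers ASCT1 and ASCT2, and Slc6a9 the glycine transporter GlyT1. Several of these genes are known targets of the transcription factor ATF4, which cells make in the integrated stress response when amino acids are short or mitochondria fail, and which binds composite C/EBP-ATF elements.

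Because such an element can lie close to a transcription start, the RefSeq promoter windows of the members were read (GRCm38.p6, 250 bases before to 50 bases after each annotated start). Windows were found for 7 of the 10 members, 11 windows in all, and none for Slc7a5, Slc1a5 and Slc7a3. The core letters TGATGNAA were searched on both strands. They were present in the windows of Slc7a11 and Slc1a4, that is in 2 of 11 member windows (18.2%), against 3.97% of all 32851 windows, and every match read TGATGCAA or its reverse complement, which 0.895% of all windows hold. The member share rests on 2 genes, and Slc7a1, Slc7a6 and Slc6a9 have more than 1 window each. Several members are known ATF4 targets, and the difference between the shares was not tested. Of 41 windows of other amino acid transporters 2 held the same letters (4.88%), both of Slc7a7, a light chain that did not pass the threshold in these hearts. These windows are shown because they carry the matches, in capitals; a match is a description of letters and not a measured binding site.
Slc7a11: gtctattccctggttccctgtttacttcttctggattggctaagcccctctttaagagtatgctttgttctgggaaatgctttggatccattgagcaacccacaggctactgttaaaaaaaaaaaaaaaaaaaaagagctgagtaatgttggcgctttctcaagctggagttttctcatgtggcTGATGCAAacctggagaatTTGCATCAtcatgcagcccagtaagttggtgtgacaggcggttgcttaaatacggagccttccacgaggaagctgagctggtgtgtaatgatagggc
Slc1a4: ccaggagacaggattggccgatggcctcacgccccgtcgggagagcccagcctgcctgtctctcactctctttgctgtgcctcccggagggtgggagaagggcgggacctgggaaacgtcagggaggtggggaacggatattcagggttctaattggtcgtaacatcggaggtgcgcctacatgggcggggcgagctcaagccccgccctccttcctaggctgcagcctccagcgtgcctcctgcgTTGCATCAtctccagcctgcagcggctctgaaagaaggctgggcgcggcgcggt
The Slc7a11 window, chr3:50443564-50443863 on the minus strand, holds the motif at bases 185 to 192 and its reverse complement at bases 204 to 211, counted from 1 at the 5′ end, with the start at base 251. In the Slc1a4 window, chr11:20332664-20332963 on the minus strand, the reverse complement lies at bases 247 to 254 and spans the start. The windows of Slc3a2, Slc7a1, Slc7a6, Slc38a2 and Slc6a9 do not hold these letters. Bases outside the windows were not searched, so an element elsewhere in these genes would be missed. The Slc3a2 window, chr19:8713848-8714147 on the minus strand, lies inside the gene, whose 5′ end is at 8723369.

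Values are FPKM, fragments scaled by gene length and library size, 1 value per heart. A log2 fold change is the difference between groups in mean log2(FPKM + 1), a scale that compresses changes of genes near or below 1 FPKM, and it was tested by limma over the 12944 genes that averaged at least 0.5 FPKM, with Benjamini-Hochberg adjustment and a threshold of 0.05. The libraries held 15989322 to 24875499 reads assigned to genes, with overlapping totals in the groups. The level of Mrps5 itself was 5.20, 6.45 and 6.33 FPKM in Ctrl, against 1.12, 1.23 and 1.31 FPKM in cKO (log2 fold change -1.65, SE 0.0944, adjusted p 0.000202). Among all genes tested, 16.3% were called higher and 17.0% lower in cKO (33.3% in either direction), and the median log2 fold change was -0.02.

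The hearts also differed in other ways. Replicate 2 of cKO was the only heart with Xist above 1 FPKM (10.7 FPKM) and had no reads of 4 Y-linked genes, which were expressed in the other 5. These values are those of a female heart beside 5 male hearts, whereas the paper's reporting summary gives all mice as male. Of the markers of cell types listed for this tissue, 6 of 8 cardiomyocyte genes were lower in cKO, and their summed level was 16596 to 21139 FPKM in Ctrl against 10022 to 17175 FPKM in cKO hearts. Of 8 endothelial markers 4 were lower (151 to 176 against 108 to 122 FPKM in sum), and of 7 smooth muscle and pericyte markers 3 were lower and Acta2 higher (211 to 229 against 121 to 153 FPKM). The sums of the fibroblast list (228 to 259 against 222 to 243 FPKM; 2 of 7 higher, 1 lower), the macrophage list (94.5 to 132 against 83.7 to 119 FPKM; 1 of 7 lower), the atrial list (25.2 to 990 against 105 to 714 FPKM) and the erythroid list (869 to 2031 against 577 to 1571 FPKM) overlapped between groups, and the T cell list summed to at most 1.17 FPKM in any heart. No marker of these lists was at 0 in all hearts. The part of these differences in the results was not tested, and in bulk tissue fewer cells of a type and less RNA per cell cannot be told apart.

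Of the 10 members, 8 were higher in cKO hearts, where 16.3% of all genes tested were called higher. Slc1a5 did not pass the threshold, and Slc7a11 lay below the filter on low values. On the log2(FPKM + 1) scale the largest changes were those of Slc7a5, Slc7a3 and Slc6a9, whereas by ratio of mean FPKM Slc7a3 (53.9) was above Slc7a5 (13.7) and Slc1a4 (7.41) above Slc6a9 (5.69). Of the 8, 6 had a log2 fold change of at least 1, and 2.13% of all genes tested were both called and that much higher. In each of the 8, every cKO heart lay above every Ctrl heart, which held for 24.8% of all genes tested (the opposite order for 26.4%), and in none was every cKO heart below. The median log2 fold change of the 9 members tested was 1.26, which describes the list only: Slc7a3 and Slc1a4 averaged below 0.5 FPKM in Ctrl hearts and entered the test through their level in cKO. Summed over the 10 genes, the level was 51.4 ± 0.551 FPKM in Ctrl and 146 ± 22.1 FPKM in cKO hearts (SD, n = 3 each), 2.84 times as much. The 8 calls held under each of the 15 alternative fits.

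**Figure D1:**
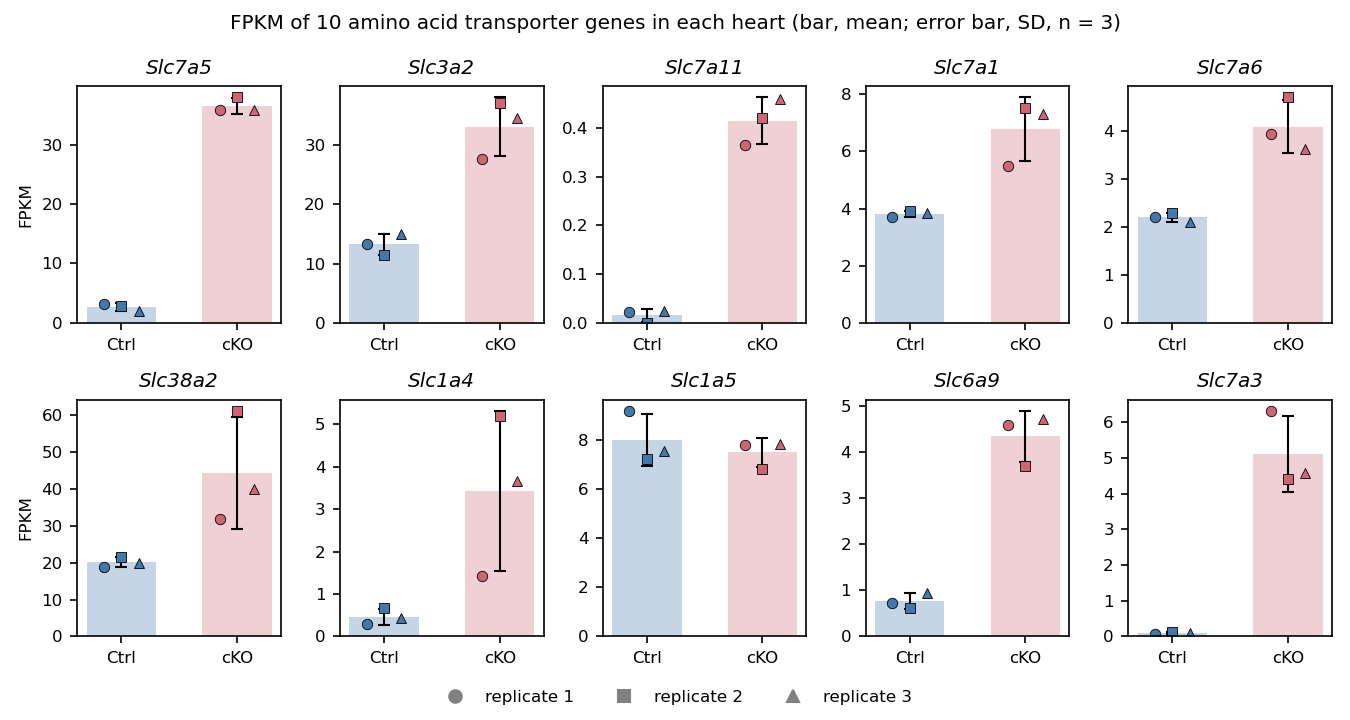
FPKM of each of the 10 members (vertical axis from 0, scale set per gene) in Ctrl and cKO hearts; points are single hearts, with a marker shape per replicate number, bars are means and error bars SD over 3 hearts. For 9 genes all cKO points lie above all Ctrl points, and the points of Slc1a5 overlap at 6.81 to 9.18 FPKM.

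The light chain Slc7a5 (ENSMUSG00000040010, chromosome 8, 121881150 to 121907694, minus strand, GRCm38) measured 3.18, 2.85 and 1.95 FPKM in the Ctrl hearts. The cKO hearts had 35.8, 38.0 and 35.8 FPKM (replicates 1, 2 and 3). The lowest cKO heart was 11.2 times the highest Ctrl heart. The means were 2.66 ± 0.638 and 36.5 ± 1.27 FPKM, a 13.7-fold difference (log2 fold change 3.37, SE 0.132, adjusted p 8.73e-05), which ranked 8 among the increases of 12944 genes. The cKO hearts were closely alike in this gene, with an SD of 3.47% of the mean, the smallest relative spread of any member in cKO. Its locus lies within the span of Gm20388, a gene model on the other strand that was at 0 in every heart.

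The heavy chain gene Slc3a2 (ENSMUSG00000010095, chromosome 19, 8706882 to 8723369, minus strand) rose less. Ctrl hearts had 13.3, 11.4 and 15.0 FPKM and cKO hearts 27.6, 37.2 and 34.7 FPKM, with no overlap between the groups. The difference was 2.50-fold (log2 fold change 1.26, SE 0.139, adjusted p 0.00166). FPKM is a value per length, so partners can be compared within a heart: the level of Slc7a5 was 0.239, 0.25 and 0.13 times that of Slc3a2 in the Ctrl hearts and 1.29, 1.02 and 1.03 times in the cKO hearts. The light chain transcript was thus below its partner in each Ctrl heart and at or above it in each cKO heart. By geometric means the ratio was 5.6 times as high in cKO (exact permutation p 0.1, two-sided, the smallest that 3 against 3 hearts allow; 0.125 after adjustment over 5 ratios).

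The other light chains behaved in unlike ways. Slc7a6 (ENSMUSG00000031904, chromosome 8, 106168857 to 106198706, plus strand) was at 2.20, 2.29 and 2.10 FPKM in Ctrl, against 3.93, 4.70 and 3.63 FPKM in cKO hearts. It rose 1.86-fold (log2 fold change 0.66, SE 0.0945, adjusted p 0.00335), and all cKO hearts were above all Ctrl hearts. Relative to Slc7a5 it lost ground, from 0.692, 0.804 and 1.08 times its level in Ctrl to 0.11, 0.124 and 0.101 times in cKO hearts (exact permutation p 0.1, adjusted 0.125 over the same 5 ratios). The levels of Slc7a7 (y+LAT1) were 1.45 ± 0.514 and 1.33 ± 0.358 FPKM, and those of Slc7a8 (LAT2, a second carrier of large neutral amino acids) 1.21 ± 0.367 and 1.14 ± 0.0952 FPKM, in Ctrl and cKO. Neither passed the threshold (limma log2 fold changes -0.06, 95% interval -0.48 to 0.35, and -0.04, 95% interval -0.34 to 0.26), and both changes took the other sign in some alternative fits.

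Slc7a11 (ENSMUSG00000027737, chromosome 3, 49892526 to 50443614, minus strand) was close to undetected in Ctrl hearts, with 6, 0 and 8 reads. In cKO replicates 1, 2 and 3 it had 86, 137 and 161 reads. In FPKM these are 0.0226, 0 and 0.0238 against 0.365, 0.421 and 0.46, so that the gene stayed low in cKO but was separated from every Ctrl heart. Its mean over the 6 hearts, 0.215 FPKM, was under the filter, and it was therefore not part of the test above. When the filter was dropped it passed the threshold (limma adjusted p 0.00374, where 5.95% of 26855 genes were called higher), and so it did in limma's voom fit to the reads (40.5-fold, 95% interval 12.3 to 134, adjusted p 0.00134, where 11.5% of 18770 genes were called higher). The filter of that voom fit, at least 10 reads, was chosen after seeing the data, and the planned voom fit did not include Slc7a11. The ratio of mean FPKM was 26.9, and with 14 reads in all Ctrl hearts the size of the change is known only roughly. Relative to Slc7a5, its level was 0.643% ± 0.612 in Ctrl and 1.14% ± 0.135 in cKO hearts, with overlap between the groups (exact permutation p 0.3, adjusted 0.3 over 5 ratios). That difference of 0.496 percentage points was 0.175 without Ctrl replicate 2, the heart with no read of Slc7a11.

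Because SLC3A2 is shared, the make-up of its light chain transcripts was compared within each heart. The 6 light chains (Slc7a5, Slc7a6, Slc7a7, Slc7a8, Slc7a10 and Slc7a11) summed to 8.48, 7.22 and 7.07 FPKM in Ctrl and to 42.6, 45.1 and 42.8 FPKM in cKO hearts. In Ctrl no light chain held a majority: the share of Slc7a5 was 37.6%, 39.5% and 27.6%, that of Slc7a6 29.1% ± 2.91, that of Slc7a7 18.8% ± 4.93 and that of Slc7a8 16.3% ± 6.12 (SD, n = 3). In cKO hearts Slc7a5 made up 83.9%, 84.1% and 83.5% of the sum, while Slc7a6 held 9.36% ± 0.972, Slc7a7 3.07% ± 0.891 and Slc7a8 2.62% ± 0.297. Slc7a11 went from 0.201% ± 0.177 to 0.954% ± 0.111 and stayed a minor part. For these 5 genes the shares were separate between groups (p 0.1 each by exact permutation, the smallest possible, adjusted 0.12 over 6 light chains), and for Slc7a10, at most 5 reads in any heart, the shares overlapped (exact permutation p 0.4). Relative to Slc3a2, the summed light chains were at 0.58 ± 0.095 in Ctrl and 1.33 ± 0.184 in cKO hearts.

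**Figure D2:**
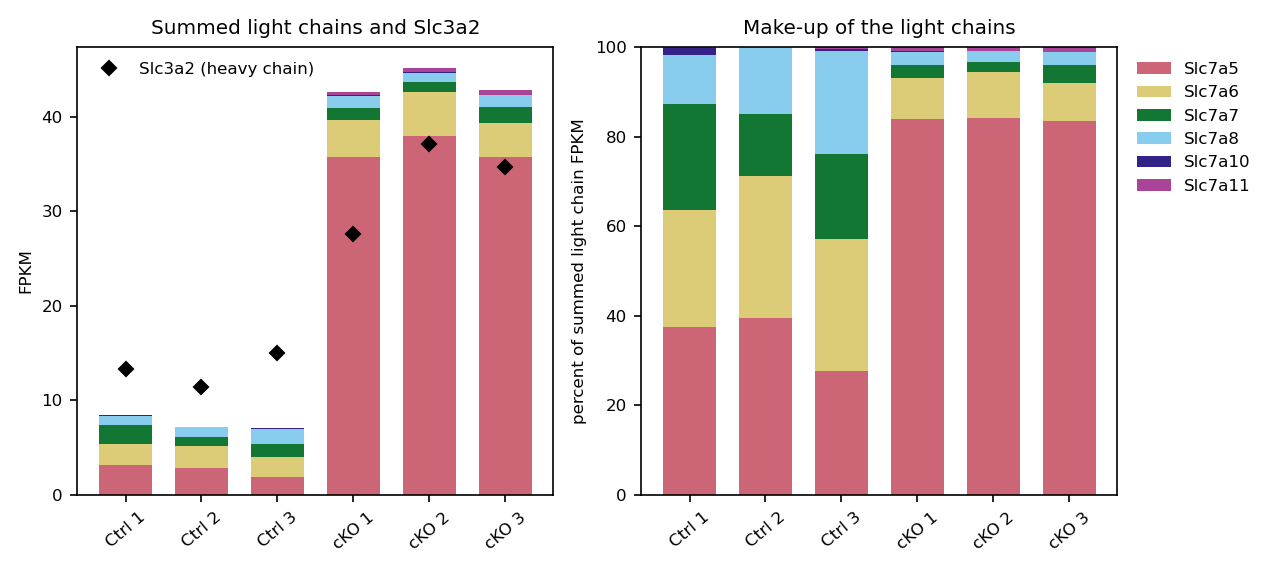
Left, FPKM of the 6 light chains stacked for each heart with the heavy chain Slc3a2 as diamonds; right, the same light chains as percent of their sum. In Ctrl hearts Slc3a2 lies above the summed light chains and in cKO hearts below them, and the share of Slc7a5 is 27.6% to 39.5% in Ctrl and 83.5% to 84.1% in cKO hearts.

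Of the CAT carriers of cationic amino acids, the members Slc7a1 and Slc7a3 rose, from very unlike levels. Their paralog Slc7a2 (CAT-2), not a member, did not pass the threshold. It was at 0.707 ± 0.243 FPKM in Ctrl and 0.586 ± 0.0519 FPKM in cKO hearts (limma adjusted p 0.55). Slc7a1 (CAT-1; ENSMUSG00000041313, chromosome 5, 148327410 to 148399904, minus strand) was at 3.70, 3.92 and 3.83 FPKM in Ctrl, against 5.48, 7.53 and 7.29 FPKM in cKO hearts, a 1.77-fold difference (log2 fold change 0.68, SE 0.115, adjusted p 0.00594). Slc7a3 (CAT-3; ENSMUSG00000031297, X chromosome, 101079210 to 101086020, minus strand), a carrier best known from the brain, was almost silent in Ctrl, with 5, 10 and 8 reads. It had 405, 389 and 436 reads in the cKO hearts. In FPKM it went from 0.0693, 0.127 and 0.0874 to 6.32, 4.40 and 4.58, so that the lowest cKO heart was 34.7 times the highest Ctrl heart.

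On the log2(FPKM + 1) scale the change of Slc7a3 was 2.47 (SE 0.126, adjusted p 0.000165), rank 25 among the increases of all genes tested. The pseudocount compresses it: the ratio of mean FPKM was 53.9, and voom on the reads gave 50.4-fold (95% interval 24.5 to 104, adjusted p 0.000119). Slc7a3 is X-linked, and without cKO replicate 2, the heart with Xist, its log2 fold change was 2.55. Its level was 2.47% ± 0.704 of that of Slc7a1 in Ctrl and 78.9% ± 31.7 in cKO hearts (exact permutation p 0.1 on the log2 ratio, adjusted 0.125 over 5 ratios). In cKO replicate 1 Slc7a3 was above Slc7a1, and in the other cKO hearts below it.

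Of the sodium-coupled carriers of neutral amino acids, Slc38a2 (SNAT2; ENSMUSG00000022462, chromosome 15, 96687392 to 96699730, minus strand) had the highest mean level of the members in both groups. In cKO replicate 1, Slc7a5 was above it, at 35.8 FPKM. Slc38a2 was at 18.9, 21.7 and 19.8 FPKM in Ctrl, against 31.8, 61.3 and 40.04 FPKM in cKO hearts. The groups were separate, although the cKO hearts spread over a 1.92-fold range (2.20-fold by means, log2 fold change 1.05, SE 0.218, adjusted p 0.0117). Without cKO replicate 2 the change was 0.80, the smallest of the alternatives, and the call held.

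The paralogs Slc1a4 and Slc1a5 differed. Slc1a4 (ENSMUSG00000020142, chromosome 11, 20302180 to 20332713, minus strand), which carries serine, alanine and cysteine, was at 0.294, 0.661 and 0.432 FPKM in Ctrl, against 1.43, 5.19 and 3.66 FPKM in cKO hearts. This was the least even response of the members, with a 3.63-fold range among the cKO hearts. Its means differed 7.41-fold (log2 fold change 1.5, SE 0.321, adjusted p 0.0131), and voom on the reads gave 7.11-fold with a 95% interval of 2.72 to 18.6.

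Slc1a5 (ENSMUSG00000001918, chromosome 7, 16781340 to 16798274, plus strand), the glutamine carrier often named with Slc7a5, was at 9.18, 7.21 and 7.55 FPKM in Ctrl, against 7.80, 6.81 and 7.84 FPKM in cKO hearts. The groups overlapped. The log2 fold change was -0.08 (SE 0.104, 95% interval -0.32 to 0.17, adjusted p 0.599), and it was 0.00073 when libraries were scaled without mtDNA-encoded genes, so no direction can be given. The ratio of Slc1a4 to Slc1a5 went from 6.03% ± 2.99 to 47.0% ± 28.9 without overlap (exact permutation p 0.1 on the log2 ratio, adjusted 0.125 over 5 ratios).

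The glycine carrier gene Slc6a9 (ENSMUSG00000028542, chromosome 4, 117834506 to 117875198, plus strand) was at 0.735, 0.608 and 0.949 FPKM in Ctrl, against 4.60, 3.71 and 4.72 FPKM in cKO hearts. All cKO hearts were at least 3.91 times the highest Ctrl heart. The means differed 5.69-fold (log2 fold change 1.60, SE 0.112, adjusted p 0.000447). Its gene overlaps B4galt2 on the other strand, and the sources do not say whether reads were counted by strand; B4galt2 itself was at 0.97 to 1.5 FPKM over the 6 hearts.

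**Figure D3:**
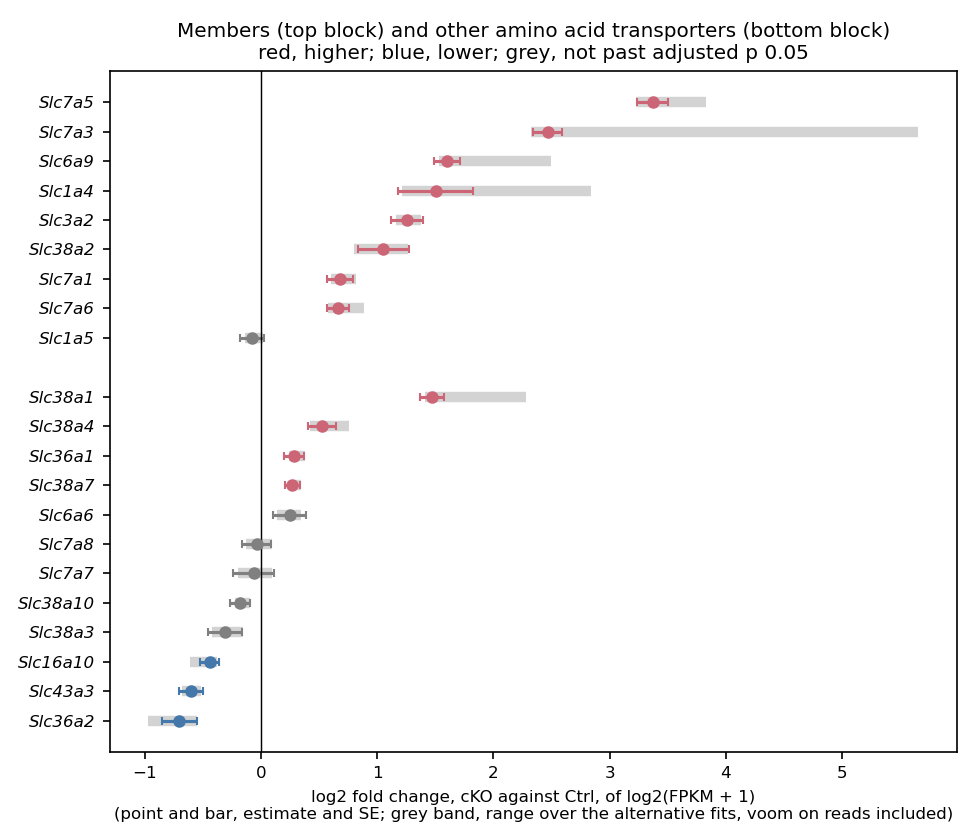
Log2 fold change of cKO against Ctrl (horizontal axis, on the log2(FPKM + 1) scale) for the 9 members tested (upper block) and 12 other amino acid transporters (lower block); points and bars are estimates with SE, and grey bands run from the lowest to the highest value over the alternative fits. The bands include fits on other scales, which are voom on reads and another pseudocount. By voom those of Slc7a3, Slc1a4 and Slc6a9 reach far to the right, up to 5.66, 2.84 and 2.50. The bands of the 8 called members stay above 0.

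The rank order of the members by level changed between the groups. In Ctrl hearts the order was Slc38a2, Slc3a2, Slc1a5, Slc7a1, Slc7a5, Slc7a6, Slc6a9, Slc1a4, Slc7a3 and Slc7a11, and among these neighbours only Slc7a5 with Slc7a6 and Slc6a9 with Slc1a4 overlapped in their ranges over hearts. In cKO hearts the order was Slc38a2, Slc7a5, Slc3a2, Slc1a5, Slc7a1, Slc7a3, Slc6a9, Slc7a6, Slc1a4 and Slc7a11. There the first 3 overlapped from neighbour to neighbour at 27.6 to 61.3 FPKM, the next 6 from neighbour to neighbour between 1.43 and 7.84 FPKM, and Slc7a11 stood apart below. Slc7a5 thus moved from rank 5 to rank 2 and Slc1a5 from rank 3 to rank 4. As a share of the summed level of the 10 genes, Slc7a5 went from 5.19% ± 1.26 to 25.4% ± 3.08 and Slc1a5 from 15.5% ± 1.96 to 5.25% ± 1.12.

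**Figure D4:**
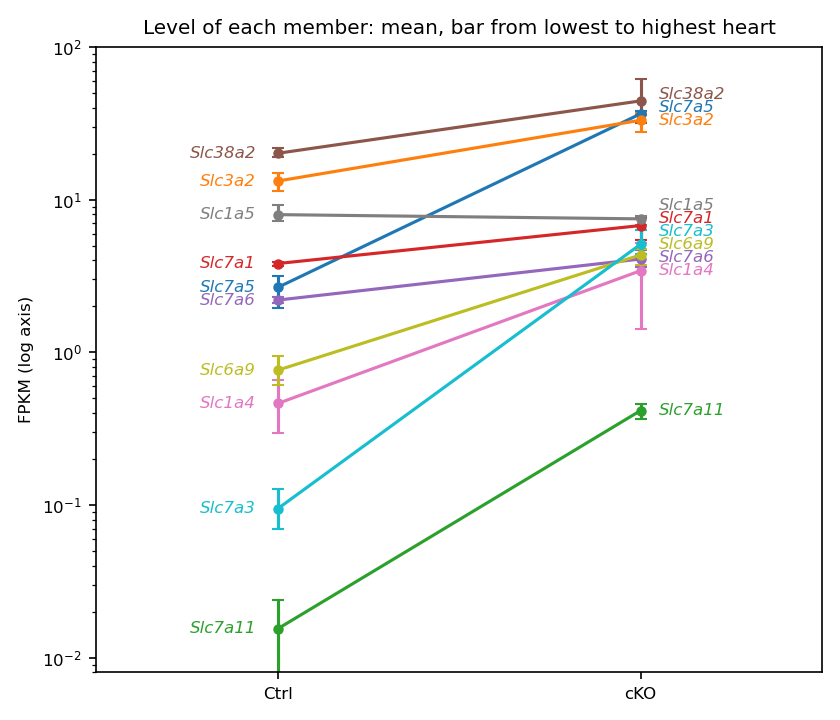
Mean FPKM of each member (log axis) in Ctrl and cKO hearts, joined by a line per gene; bars run from the lowest to the highest of 3 hearts, and the Ctrl bar of Slc7a11 reaches 0 and leaves the axis. Levels between 0.0155 and 20.1 FPKM in Ctrl become 0.415 to 44.4 FPKM in cKO, and the line of Slc7a5 crosses those of Slc7a1, Slc1a5 and Slc3a2.

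Members differed in which cKO heart was highest. Replicate 1 was the lowest cKO heart for Slc3a2, Slc7a11, Slc7a1, Slc38a2 and Slc1a4, and replicate 2 the highest for Slc7a5, Slc3a2, Slc7a1, Slc7a6, Slc38a2 and Slc1a4. Slc6a9, Slc7a3 and Slc1a5, the member that did not pass the threshold, had their lowest cKO value in replicate 2 instead. Replicate 2 was the heart with Xist, and the part of sex in these orders was not tested. Transcription regulators known to act on genes of this kind were listed alongside, with earlier results of these data known. Of 11 tested, 7 were higher and 1 lower in cKO, against 16.3% and 17.0% of all genes tested. Atf4 was at 37.9, 41.8 and 39.3 FPKM in Ctrl, against 66.2, 153 and 125 FPKM in cKO hearts (log2 fold change 1.43, SE 0.282, limma adjusted p 0.00998), lowest in the same cKO heart as Slc1a4 and Slc38a2. Its target and inhibitor Trib3 had the same order in cKO hearts, at 4.75, 36.2 and 28.8 FPKM (limma adjusted p 0.0153, and 0.052 without Ctrl replicate 2). Atf5, a relative of Atf4, was at 231, 175 and 232 FPKM in cKO hearts against 30.5 ± 3.54 FPKM in Ctrl (limma adjusted p 0.000165), with its lowest cKO value in replicate 2, as in Slc6a9, Slc7a3 and Slc1a5. These are orders of 3 hearts, given with no test.

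**Figure D5:**
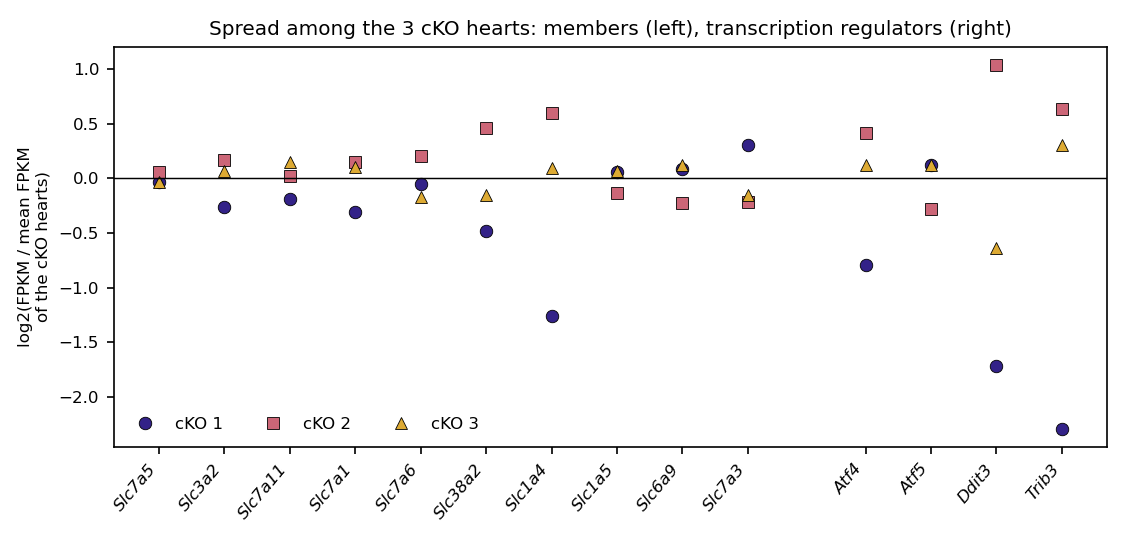
Log2 of the FPKM of each cKO heart over the mean of the 3 cKO hearts (vertical axis) for the 10 members and, to the right, Atf4, Atf5, Ddit3 and Trib3; marker shape and colour give the replicate. Points of Slc7a5 lie together, with a highest-to-lowest ratio of 1.06, and those of Slc1a4 spread most among the members, with a ratio of 3.63.

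Of the remaining regulators, Atf3 (2.06 ± 0.125 to 7.37 ± 3.33 FPKM), Myc (1.99 ± 0.912 to 7.36 ± 2.24 FPKM), Cebpg, a binding partner of ATF4 (6.39 ± 0.652 to 10.4 ± 2.02 FPKM), and Trp53 (2.66 ± 0.206 to 4.17 ± 1.10 FPKM) rose, with limma adjusted p values of 0.0146, 0.00922, 0.019 and 0.046. Bach1, a repressor of antioxidant genes, was lower (6.5 ± 0.938 to 4.30 ± 0.617 FPKM, limma adjusted p 0.0217). The calls of Cebpg, Trp53 and Bach1 were lost in 4, 6 and 4 of 15 alternatives. All of them were lost when the filter was dropped (limma adjusted p 0.0511, 0.112 and 0.0559) and Trp53 also with the replicate block (0.0704). Among fits without 1 heart, the call was lost for Cebpg without Ctrl replicate 1, Ctrl replicate 2 or cKO replicate 3, for Trp53 without any one of the Ctrl hearts or cKO replicate 1, and for Bach1 without Ctrl replicate 2, Ctrl replicate 3 or cKO replicate 1. Nfe2l2, which encodes the NRF2 protein that acts on Slc7a11, was at 16.6 ± 2.31 and 16.3 ± 1.66 FPKM (limma adjusted p 0.902), and Cebpb at 42.4 ± 7.26 and 42.5 ± 13.8 FPKM (limma adjusted p 0.915). Ddit3 was at 10.5, 71.0 and 22.3 FPKM in cKO against 7.53 ± 0.665 FPKM in Ctrl hearts and did not pass (limma adjusted p 0.0699). It passed without cKO replicate 1 (0.0183) or without cKO replicate 2 (0.0487).

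Other genes of amino acid transporter families were compared to see how general the increase was. Some were of families with no member, those of Slc16a10, Slc36a1 and Slc43a3. Of 43 further genes listed, 18 averaged at least 0.5 FPKM and were tested. Of these, 4 were higher and 3 lower, and 11 did not pass the threshold. The shares were 22.2% higher and 16.7% lower, against 16.3% and 17.0% of all genes tested. All 3 lower genes, and Slc36a1 of the 4 higher, were of the families with no member. The median log2 fold change of these 18 genes was -0.04, close to the -0.02 of all genes tested. The other 25 were at or below 0.552 FPKM in each heart, 7 of them with no read in any heart.

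Slc38a1 (SNAT1), a glutamine carrier next to Slc38a2 in kind, had the largest increase of that list. It was at 0.819, 0.689 and 1.04 FPKM in Ctrl, against 4.29, 4.45 and 3.67 FPKM in cKO hearts (log2 fold change 1.47, SE 0.103, adjusted p 0.000447). Slc38a4, a neutral amino acid carrier of the same family, rose from 1.83 ± 0.366 to 3.06 ± 0.328 FPKM (adjusted p 0.0155). The increases of Slc36a1 (2.65 ± 0.269 to 3.43 ± 0.236 FPKM, adjusted p 0.0424) and Slc38a7 (3.98 ± 0.075 to 5.00 ± 0.168 FPKM, adjusted p 0.0202) were small. Both encode carriers known from the lysosome, and their calls were lost in 6 and 5 of 15 alternatives. Without Ctrl replicate 1, Ctrl replicate 2 or cKO replicate 3 only 2 genes of the list were called higher, which were Slc38a1 and Slc38a4.

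Lower in cKO were Slc36a2, a proton-coupled carrier of small amino acids (3.42 ± 0.449 to 1.73 ± 0.481 FPKM, adjusted p 0.0129), Slc16a10 (TAT1), a carrier of aromatic amino acids (3.37 ± 0.235 to 2.22 ± 0.183 FPKM, adjusted p 0.00769), and Slc43a3 (28.5 ± 2.25 to 18.5 ± 2.24 FPKM, adjusted p 0.00675). Slc43a3 belongs to the family by sequence but is known as a carrier of purine bases. Each of these 3 calls held under all 15 alternatives. Among the well-expressed genes of the list, the taurine carrier Slc6a6 (17.6 ± 2.50 and 21.04 ± 3.14 FPKM in Ctrl and cKO), the glutamine carrier Slc38a3 (17.8 ± 3.72 and 14.0 ± 1.28 FPKM) and Slc38a10 (19.0 ± 1.17 and 16.7 ± 1.47 FPKM) did not pass the threshold, with limma adjusted p values of 0.214, 0.147 and 0.161.

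To find which transcripts behaved most like the CD98 pair, the 11421 protein-coding genes tested were ordered by the root mean square distance between profiles over the 6 hearts, each profile being log2(FPKM + 1) less the gene's own Ctrl mean. Nearest to Slc7a5 were Psat1 and Pycr1 (both at a distance of 0.201), Aldh18a1 (0.335), Cyb5r1 (0.346) and Stbd1 (0.461). Psat1 encodes an enzyme of serine synthesis, Pycr1 and Aldh18a1 enzymes of proline synthesis, and Stbd1 a glycogen-binding protein. Psat1 went from 1.40 ± 0.578 to 26.0 ± 4.55 FPKM and Aldh18a1 from 2.39 ± 0.0964 to 25.4 ± 1.47 FPKM. Nearest to Slc3a2 were Aars (0.13), Ero1l (0.145), Dhx37 (0.148), Tnc (0.152) and Zfp568 (0.162). Aars encodes the alanyl-tRNA synthetase and rose from 8.44 ± 0.171 to 22.2 ± 2.00 FPKM, and Ero1l encodes an oxidase of the endoplasmic reticulum. With 2 groups of 3 hearts, such a distance mostly reflects the size of the group difference on the log2(FPKM + 1) scale. That scale compresses changes of low genes, so near profiles need not share a ratio of FPKM. Tnc went from 0.216 ± 0.0555 to 1.80 ± 0.470 FPKM, and Pycr1 from 0.491 ± 0.164 to 12.5 ± 1.64 FPKM.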

How the data were processed

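RNA of 6 mouse hearts (3 Ctrl, 3 cKO) had been sequenced from poly-A selected libraries as paired ends. Per the labels and the methods text, reads were aligned with HISAT2 2.0.5 and counted per gene with featureCounts 1.5.0-p3, and the authors calculated FPKM from count and gene length. The gene length column was deposited as an other, gene-level value. The labels name the build mm9, but all 54409 identifiers shared with GENCODE M21 had the same chromosome there, 53499 with the same start and end, so coordinates are those of GRCm38. Whether counting used the strand was not given in the sources used here.

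FPKM times gene length was a whole multiple of 1 step per library for 100% of the values (tolerance 0.01 of a read), which gave the reads; these cover counting only. The implied library sizes were 0.98, 0.913 and 0.972 times the read totals in Ctrl and 1.06 times in each cKO heart. This ratio was thus separate between the groups. The voom fits used the implied sizes, and fits scaled to the read totals were not run. FPKM was analysed as log2(FPKM + 1) for genes averaging 0.5 FPKM or more (R 4.3.3; limma 3.58.1, moderated statistics with a trend on level, 2 groups, no covariates, two-sided, Benjamini-Hochberg over 12944 genes). The fit was checked on simulated data that gave every gene the same dispersion, taken from the Ctrl hearts. The check therefore does not cover genes that spread more widely in cKO hearts. Ratios and shares within a heart were compared by exact permutation (scipy 1.17.1); Slc7a11 over Slc7a5 was taken as a ratio in percent because Slc7a11 was at 0 in a Ctrl heart. Errors denote the SD over 3 hearts, or the SE where named.

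The members and all lists were chosen with earlier results of these data known. Genes named are Mrps5, the 10 members, the called and the 8 most abundant of the other transporters, the regulators, the light chains and the nearest profiles. Slc7a2 was named in addition, as a paralog of Slc7a1 and Slc7a3. Alternatives were another pseudocount, other filters, 2 scalings, no trend, a replicate block, voom on reads (with a second filter, of at least 10 reads, chosen after seeing the data) and leaving out each heart.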

Additional observations from a re-analysis of the deposited data

How the results depend on the processing

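Mrps5 and the 8 members called higher kept direction and call under the 15 alternatives, and the 5 ratios and the shares of the 6 light chains kept their direction under theirs (Slc7a11 over Slc7a5, which overlapped between groups, at 0.175 to 0.783 percentage points), which were the reads per kilobase, the omission of each heart and, for 4 shares, the smaller pool. Leaving out 1 heart at a time gave 1400 to 1993 genes higher and 1434 to 2006 lower among all genes, against 2110 and 2205; the higher count was lowest without Ctrl replicate 3 and the lower count 1434 without Ctrl replicate 2 and 1450 without Ctrl replicate 3. The fits without 1 heart gave 2 to 3 other transporters higher. When mtDNA-encoded genes were left out of the scaling, 2647 genes were called higher and 1623 lower, with a median change over all genes of 0.05 in place of -0.02. Dropping the filter or fitting voom to all genes with at least 10 reads added Slc7a11 to the members called, at 0.48 on the log2(FPKM + 1) scale and at 5.34 by voom on the reads.

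Values near 0 changed sign, none past the threshold. Without mtDNA-encoded genes in the scaling, Slc1a5 was at 0.00073, Slc7a8 at 0.0094, Cebpb at 0.046 and Nfe2l2 at 0.062, and with median-of-ratios scaling Nfe2l2 was at 0.0040. In the fits without 1 heart Slc1a5 ranged from -0.14 to 0.016, Slc7a7 from -0.20 to 0.097, Slc7a8 from -0.13 to 0.092, Cebpb from -0.22 to 0.25 and Nfe2l2 from -0.099 to 0.084. What caused the sign changes was not tested.

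With the replicate block 1874 genes were higher and 1982 lower, 8 members were higher, and Slc36a1 (adjusted p 0.0562) and Trp53 (0.0704) lost their calls. The block cannot move a fold change in this balanced design, and Mrps5 stayed at -1.65. Same-numbered hearts deviated from their group means with correlations of -0.06, 0.17 and -0.01, so the numbers were not taken as pairs. Genes with few reads, such as Slc7a11, are limited by depth. The share of light chains with a mean of at least 0.5 FPKM has no value for Slc7a10 and Slc7a11.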
